A study of Mus musculus with 16 samples.

Results

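The 10 genes described here are immediate early response genes, taken from the mRNA table by their symbols: Fos, Fosb, Jun, Junb, Atf3, Egr1, Nr4a1, Nr4a3, Ier2 and Btg2. All 10 were found among the 23235 gene names of that table, and all 10 passed the filter on low counts that left 15364 genes for testing. The counts of the 23 transcripts listed under these symbols were summed per gene in each mouse. RNA sequencing was done on skeletal muscle of 16 male C57BL/6J mice, bought at an age of 6 weeks, with 4 mice in each of 4 groups. The control group had a normal diet. The HFD group had a high-fat diet with 60% fat (D12492J), fed for 8 weeks before the treatments began. The HFD + RSV group had the same diet and then 6 weeks of resveratrol (RSV), a plant polyphenol, and the HFD + metformin group had the diet and then 6 weeks of metformin, a drug that lowers blood glucose. The diet serves as a model of insulin resistance, and no gene was altered in any group. Which muscle was sampled is not given in the sources used here, and the study's methods describe no metformin group.

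Immediate early genes are switched on within minutes of a stimulus by proteins already present in the cell, and their mRNAs are short-lived. Growth factors, insulin, calcium, stress and, in muscle, contraction act on them through mitogen-activated protein (MAP) kinases, serum response factor and CREB. Fos, Fosb, Jun and Junb encode subunits of the dimeric transcription factor AP-1, and Atf3 encodes a stress-induced relative of that family. Egr1 encodes a zinc finger transcription factor, Nr4a1 and Nr4a3 encode orphan nuclear receptors with roles in the fuel metabolism of muscle, Ier2 encodes a small nuclear protein, and Btg2 encodes an antiproliferative protein that also promotes mRNA decay. The comparisons address whether the diet, and each treatment on top of it, went with other levels of these mRNAs when the muscle was collected.

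Upstream sequences are shown for 3 of the genes, since Nr4a3 and Btg2 carried the differences that passed the main test and Fos was the member for which a single HFD + RSV mouse stood farthest from the rest of that group relative to its range. They are RefSeq windows of build GRCm38.p6, written 5′ to 3′ on the strand of the gene and ended before the transcript of the mRNA table begins. Capitals mark the letters TGACG, the core of a cyclic AMP response element (CRE), on either strand for Nr4a3, the full CRE and the SP1 sites for Btg2, and an SP1 site and the TATA box for Fos.
Nr4a3 (chr4:48045055-48045152, plus strand): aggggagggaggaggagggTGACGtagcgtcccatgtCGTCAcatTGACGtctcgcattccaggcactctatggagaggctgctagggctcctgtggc
Btg2 (chr1:134079156-134079405, minus strand): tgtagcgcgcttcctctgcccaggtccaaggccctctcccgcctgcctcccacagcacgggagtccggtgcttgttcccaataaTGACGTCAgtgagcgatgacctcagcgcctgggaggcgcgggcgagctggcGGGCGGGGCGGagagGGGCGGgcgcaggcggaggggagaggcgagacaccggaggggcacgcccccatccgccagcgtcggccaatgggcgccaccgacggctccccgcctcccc
Fos (chr12:85473640-85473889, plus strand): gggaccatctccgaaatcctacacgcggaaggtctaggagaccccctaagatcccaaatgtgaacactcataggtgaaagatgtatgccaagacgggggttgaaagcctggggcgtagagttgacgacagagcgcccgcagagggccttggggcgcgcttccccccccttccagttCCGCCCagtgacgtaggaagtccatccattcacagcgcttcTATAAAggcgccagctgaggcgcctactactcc
Motifs were searched on both strands from 250 bases before to 50 bases after the RefSeq start of 8 of the 10 genes, and the windows of Egr1 and Ier2 were not analysed here. The full CRE, TGACGTCA, was found only in the Btg2 window, with its first base 166 bases before the start, against 1.79% of all 32851 windows. The SP1 letters GGGCGG were found in 7 of the 8 windows, all but that of Junb, against 35.7% of all windows. The TATA box letters TATAAA were found from 33 bases before the start of Fos and also at the start of Junb, against 13.6% of all windows. None of the 8 windows held the CArG box (1.63% of all windows), the AP-1 letters TGACTCA or TGAGTCA (5.2%), the NBRE letters AAAGGTCA (1.51%), the EGR letters GCGTGGGCG (0.612%), the ETS letters CCGGAAG (8.86%) or the CARE letters ATTGCATCA (0.192%). The core letters TGACG, which the full CRE contains, were added to the search after the windows had been read. They occurred 4 times in the Nr4a3 window, 3 of them in the stretch printed, and 4 times in the Nr4a1 window, and 0.231% of all windows hold at least as many. Btg2 and Fos had 2 (5.01% of all windows hold at least as many), Atf3, Fosb and Junb had 1 (20.8%) and Jun had 0. The 2 of Btg2 overlap on opposite strands within its full CRE, while the 2 of Fos lie apart. Matches describe letters only, since no binding was measured.

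Counts assigned to the mRNA table summed to between 17625909 and 29761026 per mouse, and every member had at least 9 counts in every mouse. Levels are given as CPM, counts scaled to the library size after correction by trimmed means of M values (TMM). The 12 muscle fibre markers, such as Acta1 and Ckm, summed to between 80624 and 153867 CPM per mouse. The 3 retina markers in the table summed to between 0.276 and 1.33 CPM, which was looked at because the labelled extraction protocol speaks of retinas. The 4 HFD mice share a leading label number, 7, that no mouse of another group has. Mice of both treated groups had the same diet but other leading numbers. Whatever the number 7 stands for is therefore mixed with the diet in HFD against control. It is likewise mixed with the treatment in HFD + RSV against HFD and in HFD + metformin against HFD. HFD + RSV mice 1 and 2 share the leading number 1 with control mice 1, 2 and 3, and HFD + RSV mouse 4 shares the leading number 6 with HFD + metformin mouse 2. What the numbers mean is not given, and their part in the levels was not tested. In the study's methods some mice of each group were injected with insulin shortly before anaesthesia. Whether the sequenced mice were among them is not given, and the part of insulin in the levels below was not tested.

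The 10 genes covered a wide range of levels. Per length, as the deposited FPKM (fragments per kilobase of transcript, scaled to library size), the mean over the 16 mice was highest for Nr4a1 at 48.7 ± 13.0 FPKM (SD, n = 16) and Jun at 37.2 ± 8.42 FPKM. Btg2 at 16.1 ± 8.83 FPKM, Fos at 12.5 ± 7.04 FPKM and Junb at 8.17 ± 4.38 FPKM were in the middle. Ier2 at 4.80 ± 1.68 FPKM, Atf3 at 4.76 ± 3.68 FPKM, Egr1 at 3.07 ± 2.73 FPKM, Nr4a3 at 1.97 ± 1.41 FPKM and Fosb at 0.827 ± 0.774 FPKM were low. Neighbours in that order lay within the larger of their SDs, except for the step from Jun to Btg2. The spread between mice differed as well. In CPM, the highest mouse stood 2.26-fold above the lowest for Jun and 2.41-fold for Nr4a1, against 14.2-fold for Nr4a3, 18.5-fold for Atf3 and 28.3-fold for Fosb, whose lowest mouse had 9 counts.

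**Figure D1:**
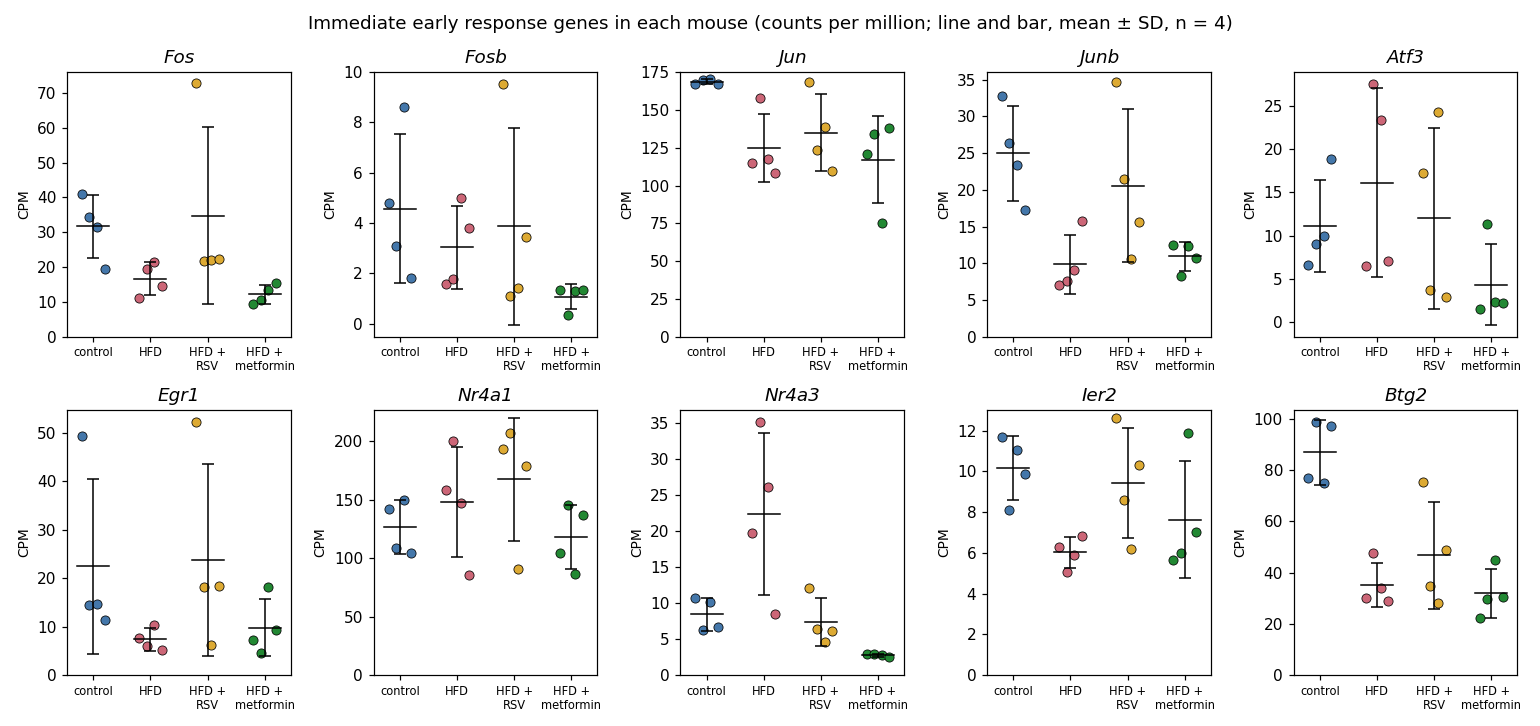
Level of each gene in each mouse (y axis, CPM after TMM scaling), 1 panel per gene, with the 4 groups on the x axis, a point per mouse and the mean ± SD of 4 mice as line and bars. The 4 HFD + metformin mice lie between 2.48 and 2.88 CPM for Nr4a3, below the other 12 mice, and the HFD mice lie below the control mice for Jun, Junb, Egr1, Ier2 and Btg2.

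When the HFD group was compared with the control group, Btg2 was the only member that passed the main test, an edgeR quasi-likelihood test adjusted over all genes. Btg2 fell by 1.30 on the log2 scale. Of the 10 log2 fold changes, 7 were below 0, and those of Atf3, Nr4a1 and Nr4a3 were above 0. Their median was -0.67, against -0.02 over all genes tested. The call of 1 in 10 members stands beside 2.43% of all genes.

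Btg2 was at 77.0, 98.5, 75.0 and 97.0 CPM in the control mice and at 30.0, 47.6, 34.1 and 29.1 CPM in the HFD mice. Every HFD mouse was below every control mouse. The log2 fold change was -1.30 ± 0.28 (SE) with a 95% confidence interval of -1.90 to -0.70 (edgeR adjusted P = 0.0369). It missed the threshold when any HFD mouse, control mouse 2, 3 or 4, or HFD + RSV mouse 4 was left out, with edgeR adjusted P values up to 0.111, while the log2 fold change stayed between -1.48 and -1.22. In bulk muscle, fewer cells of a type and less RNA per cell cannot be told apart.

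Among the AP-1 subunits, Junb was at 32.8, 26.3, 23.4 and 17.3 CPM in the control mice and at 7.10, 7.61, 9.06 and 15.8 CPM in the HFD mice. These groups did not overlap, with HFD mouse 4 nearest to the control range. Junb had a log2 fold change of -1.34 ± 0.34 (edgeR adjusted P = 0.0523). Jun, the main DNA-binding partner of Fos, was at 167, 170, 170 and 168 CPM in the control mice and at 115, 158, 118 and 108 CPM in the HFD mice. The control mice were nearly equal and all above the HFD mice, with a log2 fold change of -0.44 ± 0.18 (edgeR adjusted P = 0.155). Fos was at 41.1, 34.4, 31.6 and 19.5 CPM in the control mice and at 11.0, 19.5, 21.3 and 14.7 CPM in the HFD mice. The Fos groups overlapped through control mouse 4, and the log2 fold change was -0.93 ± 0.38 (edgeR adjusted P = 0.157). Fosb, a Fos relative, ranged from 1.82 to 8.60 CPM in the control mice and from 1.56 to 4.99 CPM in the HFD mice, so these groups overlapped widely. Over all 16 mice, 43.7% of the Fosb counts were assigned to a transcript annotated with a retained intron, ENSMUST00000208230.

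Egr1 was at 49.4, 14.4, 14.6 and 11.4 CPM in the control mice and at 7.75, 6.03, 10.4 and 5.24 CPM in the HFD mice. Control mouse 1 stood far above its group, and all HFD mice were below all control mice. Its log2 fold change was -1.60 ± 0.62 (edgeR adjusted P = 0.139), and it was -0.87 without control mouse 1. Ier2 was at 11.7, 8.11, 11.0 and 9.88 CPM in the control mice and at 6.27, 5.07, 5.88 and 6.84 CPM in the HFD mice. The Ier2 groups did not overlap either (log2 fold change -0.76 ± 0.24, edgeR adjusted P = 0.0883). Jun, Junb, Egr1, Ier2 and Btg2 thus had every HFD mouse below every control mouse, 5 of 10 members beside 9.44% of all genes.

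The nuclear receptor Nr4a3 had a log2 fold change of the other sign. It was at 10.7, 6.24, 10.1 and 6.66 CPM in the control mice and at 19.8, 35.2, 26.2 and 8.50 CPM in the HFD mice. HFD mice 1, 2 and 3 were above the control range, and HFD mouse 4 was within it. Its log2 fold change was 1.41 ± 0.36 with a 95% confidence interval of 0.63 to 2.19 (edgeR adjusted P = 0.0556). Nr4a1 ranged from 104 to 150 CPM in the control mice and from 85.8 to 200 CPM in the HFD mice, with a log2 fold change of 0.23 ± 0.27. Atf3 ranged from 6.57 to 18.8 CPM in the control mice, while HFD mice 2 and 3 were at 27.5 and 23.3 CPM and HFD mice 1 and 4 at 6.49 and 7.07 CPM. Atf3 had a log2 fold change of 0.54 ± 0.76.

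How many members were called in this comparison depended on the test. The study screened by P below 0.05 with an absolute log2 fold change above 1. Its methods describe the P threshold as set through the false discovery rate. Here and below, the study's criteria are applied with the unadjusted P of the edgeR fit. They took in Junb, Egr1, Nr4a3 and Btg2, 4 of 10 members beside 4.94% of all genes. The study's own list of top mRNAs has Fos as lower in HFD and higher in HFD + RSV. In the fit used here, Fos had a log2 fold change of -0.93 in HFD against control, short of the fold threshold. A fit of the 12 mice without the metformin group called Junb, Ier2, Nr4a3 and Btg2 by adjusted P, 4 of 10 members beside 10.7% of all genes. DESeq2 on all 16 mice called these 4 as well, beside 10.1% of all genes. The log2 fold change of each of the 10 members kept its sign in all 22 alternatives tried.

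**Figure D2:**
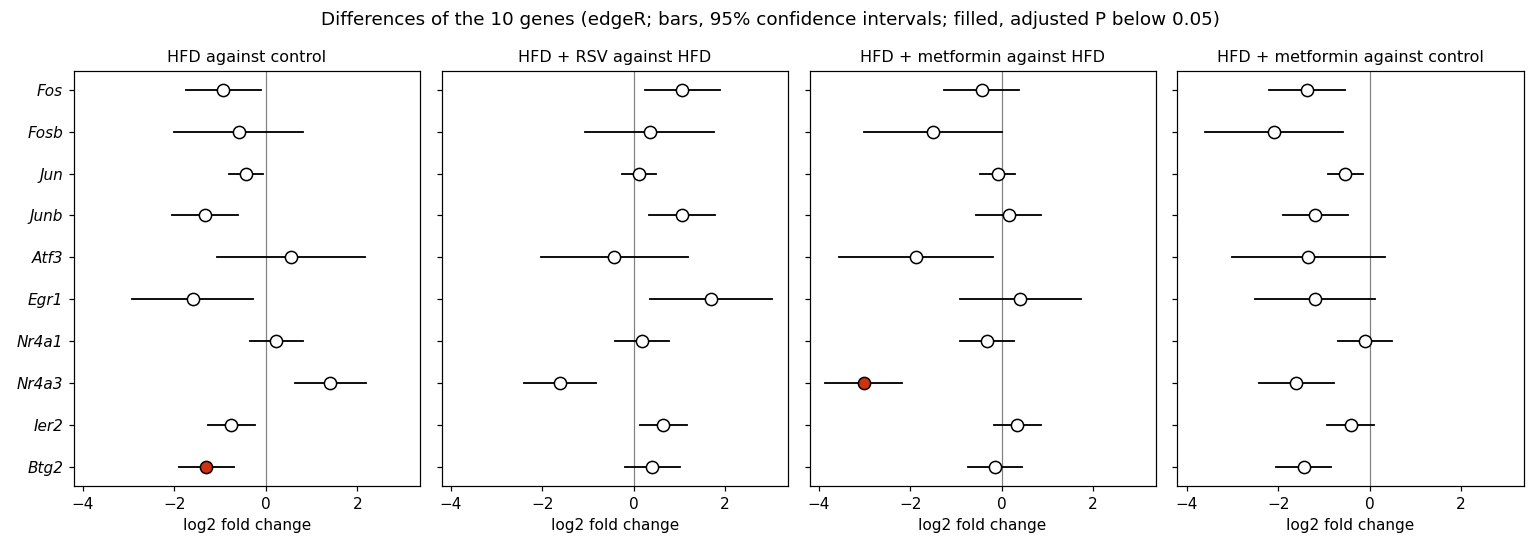
Log2 fold change of each gene (x axis, point) with its 95% confidence interval (bar) from edgeR in 4 comparisons, where filled points mark an adjusted P below 0.05. Btg2 is filled at -1.30 in HFD against control and Nr4a3 at -3.02 in HFD + metformin against HFD, and in HFD + metformin against control all 10 points lie below 0.

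When the HFD + metformin group was compared with the HFD group, Nr4a3 fell by 3.02 on the log2 scale and was the only member that passed the main test. The metformin mice were at 2.86, 2.88, 2.83 and 2.48 CPM, against 19.8, 35.2, 26.2 and 8.50 CPM in the HFD mice. The metformin values lay within 1.16-fold of each other and below those of the other 12 mice, of which HFD + RSV mouse 3 was lowest at 4.57 CPM. With -3.02 ± 0.39 (SE), the log2 fold change had a 95% confidence interval of -3.86 to -2.18 (edgeR adjusted P = 0.0133). The exact two-sided permutation P for the difference in mean log2 CPM was 0.0286, the smallest that 4 against 4 mice can give. Nr4a3 was 1 of 2 genes called among the 15364 (0.013%). The other was Oasl2, an interferon-induced gene named here after its values were seen, with a log2 fold change of 1.05 ± 0.14. The Nr4a3 call was lost when HFD mouse 2, HFD mouse 3 or any metformin mouse was left out, with edgeR adjusted P values up to 0.105, and in a fit of the 8 mice alone (edgeR adjusted P = 0.202). It stayed between -3.29 and -2.72 on the log2 scale whichever mouse was left out.

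The Nr4a3 counts came from 4 listed transcripts. The longest, ENSMUST00000030025 with 5720 bases on chromosome 4 from 48045153 to 48086445, had 446, 797, 526 and 168 counts in the HFD mice and 35, 59, 58 and 48 counts in the metformin mice. It made up 88.9% to 97.6% of the Nr4a3 counts in the HFD mice and 67.3% to 86.6% in the metformin mice. The other 3 transcripts together had 11 to 66 counts in the HFD mice and 9 to 21 counts in the metformin mice. Most of the difference in counts therefore lay in the longest transcript.

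The other 9 members did not pass between the HFD + metformin and HFD groups. Over the 10 members, 7 log2 fold changes were below 0 and the median was -0.23, against 0.02 over all genes. Fosb was at 1.32, 0.337, 1.31 and 1.33 CPM in the metformin mice, all below the lowest HFD mouse at 1.56 CPM. With 9 to 37 counts in the metformin mice, its log2 fold change was -1.50 ± 0.70 (edgeR adjusted P = 0.618). Fosb and Nr4a3 were the 2 members with every metformin mouse below every HFD mouse, beside 1.89% of all genes. Atf3 was at 1.48, 11.3, 2.37 and 2.19 CPM in the metformin mice, where mouse 2 lay within the HFD range (log2 fold change -1.88 ± 0.79, edgeR adjusted P = 0.618). The criteria of the study took in Atf3 and Nr4a3, 2 of 10 members beside 1.76% of all genes. For the 5 members with every HFD mouse below every control mouse, the log2 fold change here was -0.09 ± 0.18 for Jun, 0.15 ± 0.34 for Junb, 0.41 ± 0.62 for Egr1, 0.34 ± 0.24 for Ier2 and -0.14 ± 0.28 for Btg2.

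Compared with the control group, the HFD + metformin group had log2 fold changes below 0 for all 10 members, with a median of -1.27 against 0.01 over all genes. No member passed the main edgeR test, and none of the 15364 genes did (0%). At an unadjusted P below 0.05 there were 6 members and 1459 genes. Fos was at 9.40, 10.7, 13.5 and 15.4 CPM in the metformin mice, all below the lowest control mouse at 19.5 CPM (log2 fold change -1.37 ± 0.39, edgeR adjusted P = 0.257). Btg2 was at 22.3, 29.8, 45.0 and 30.5 CPM, all below the lowest control mouse at 75.0 CPM (log2 fold change -1.44 ± 0.28, edgeR adjusted P = 0.144). Fosb, Jun, Junb and Nr4a3 did not overlap either, which made 6 of 10 members with every metformin mouse lower, beside 1.57% of all genes. The study's criteria took in 5 of these 6, all but Jun, beside 1.63% of all genes. DESeq2 called Fos, Junb, Nr4a3 and Btg2, 4 of 10 members beside 1.01% of all genes. The comparisons of the metformin group with HFD and with control share the metformin mice.

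When the HFD + RSV group was compared with the HFD group, no member and no gene passed the main edgeR test (0%), although 5 members and 725 genes had an unadjusted P below 0.05. Fos was at 72.9, 21.7, 22.0 and 22.4 CPM in the HFD + RSV mice. Mouse 1 stood far above the others, which lay close together and just above the highest HFD mouse at 21.3 CPM. The log2 fold change was 1.06 ± 0.38, and it was 0.40 without HFD + RSV mouse 1. Fos was the only member with every HFD + RSV mouse above every HFD mouse, beside 1.88% of all genes. Junb was at 34.6, 21.5, 10.6 and 15.6 CPM and Egr1 at 52.3, 18.2, 6.30 and 18.3 CPM in the HFD + RSV mice. Both ranges reached down into those of the HFD mice, with log2 fold changes of 1.06 ± 0.34 for Junb and 1.69 ± 0.62 for Egr1, and of 0.69 and 0.95 without mouse 1. Ier2 had a log2 fold change of 0.65 ± 0.24, and 0.48 without mouse 1.

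Nr4a3 was at 12.2, 6.42, 4.57 and 6.17 CPM in the HFD + RSV mice, against 8.50 to 35.2 CPM in the HFD mice. The groups overlapped only because HFD + RSV mouse 1 was above HFD mouse 4. The log2 fold change was -1.61 ± 0.37, with an unadjusted P of 0.000566 that ranked 6 among the smallest of all genes, but the edgeR adjusted P was 0.999. DESeq2 called Nr4a3 (adjusted P = 0.0284), 1 of 10 members beside 0.0521% of all genes. The study's criteria took in Fos, Junb and Egr1 as higher and Nr4a3 as lower, 4 of 10 members beside 1.08% of all genes. The median log2 fold change of the 10 members was 0.38, against 0.00 over all genes. By the same criteria 5 of 7 slow fibre markers (median log2 fold change 2.45) and 4 of 6 Schwann cell markers (median 1.40) were higher in the HFD + RSV mice, and none passed the main test. Their summed levels ranged from 116 to 1371 CPM for slow fibres and from 41.2 to 409 CPM for Schwann cells in these mice, with the highest Schwann sum in mouse 2. The part of these markers in the member levels was not tested.

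A single mouse stood apart in the HFD + RSV group. HFD + RSV mouse 1 was the highest of all 16 mice for Fos, Fosb, Junb, Egr1 and Ier2, 5 of the 10 members, and the highest of its group for 8. Control mouse 1 was among the 3 highest mice for 5 members, with Egr1 at 49.4 CPM. No control mouse was among the 3 lowest mice for any member, whereas each of the 4 metformin mice was the lowest of all for at least 1 member. HFD mice 1, 2 and 4 were also each the lowest of all for 1 member. Nr4a3 departed from this order at the top, where HFD mice 1, 2 and 3 were its 3 highest mice, while the 4 metformin mice were its lowest. Atf3 was also highest in HFD mouse 2, at 27.5 CPM.

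**Figure D3:**
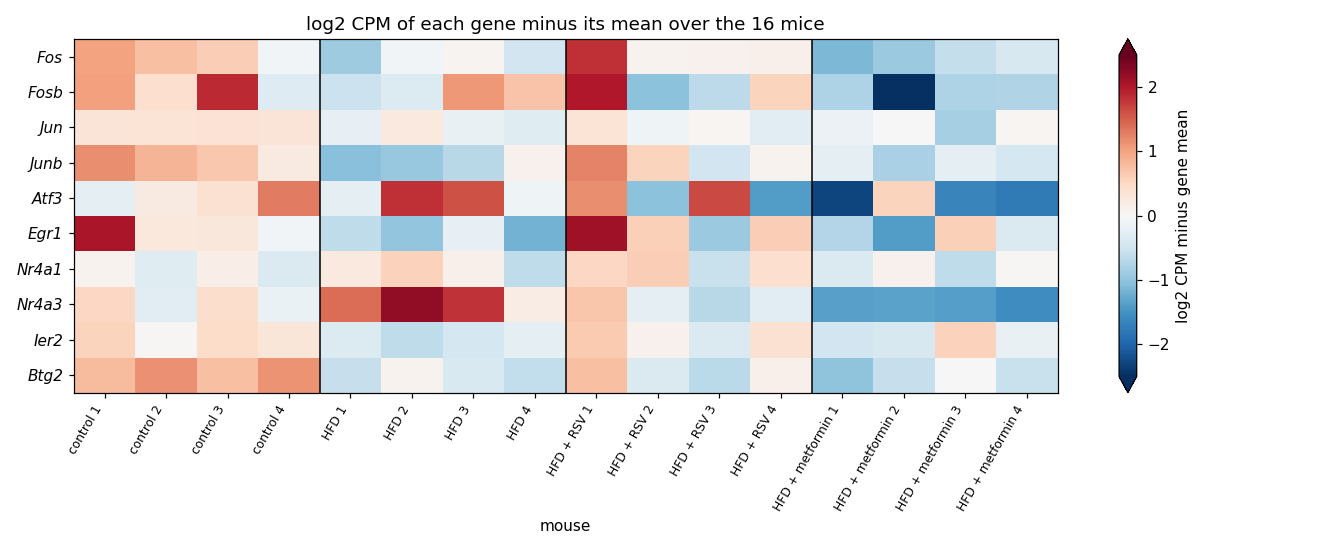
Log2 CPM of each gene (rows) in each mouse (columns, black lines between groups) minus the mean of that gene over the 16 mice, with higher values in red and lower values in blue. HFD + RSV mouse 1 and control mouse 1 are red for Fos, Fosb, Junb and Egr1, the 4 metformin columns are blue for Nr4a3, and Nr4a3 is red in HFD mice 1, 2 and 3.

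Between the HFD + RSV and control groups no member passed the main edgeR test, which 0.00651% of all genes did, and none met the study's criteria, which 2.72% of all genes did. The member with an unadjusted P below 0.05, against 2424 genes, was Btg2, at 75.2, 34.9, 28.1 and 48.6 CPM in the HFD + RSV mice. Mouse 1 lay within the control range, the others below it, and the log2 fold change was -0.90 ± 0.28 (edgeR adjusted P = 0.18). DESeq2 called no member here and 376 genes. The other 9 log2 fold changes lay between -0.32 and 0.41.

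Between the HFD + RSV and HFD + metformin groups all 10 log2 fold changes were above 0, with a median of 1.09 against 0.00 over all genes, and no member or gene passed the main edgeR test (0%), while 4 members and 719 genes had an unadjusted P below 0.05. DESeq2 called no member and 10 genes. Fos and Nr4a3 had every HFD + RSV mouse above every metformin mouse, 2 of 10 members beside 0.599% of all genes. The lowest HFD + RSV mouse was at 21.7 CPM for Fos and 4.57 CPM for Nr4a3, against 15.4 and 2.88 CPM in the highest metformin mouse. The log2 fold changes were 1.50 ± 0.39 for Fos and 1.41 ± 0.38 for Nr4a3. The study's criteria took in Fos, Fosb and Nr4a3, 3 of 10 members beside 0.97% of all genes.

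In a test of any difference among the 4 groups, Nr4a3 passed (edgeR adjusted P = 0.0183), 1 of 10 members beside 0.117% of all genes. This call was lost without control mouse 2 or 3 or HFD mouse 1, 2 or 3. DESeq2 called 4 members in this test, for which no share of all genes was computed. The group means of Nr4a3 were 22.4 ± 11.2 CPM in HFD, 8.42 ± 2.30 CPM in control, 7.33 ± 3.32 CPM in HFD + RSV and 2.76 ± 0.191 CPM in HFD + metformin (SD, n = 4 each). Neighbours in this order did not differ by the main test. Btg2 had the next smallest P of the members in this test (edgeR adjusted P = 0.0829), with means of 86.9 ± 12.6 CPM in control, 46.7 ± 20.8 CPM in HFD + RSV, 35.2 ± 8.56 CPM in HFD and 31.9 ± 9.51 CPM in HFD + metformin.

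Atf3 counts were divided between transcripts in a way that varied from mouse to mouse. ENSMUST00000027941 begins at position 191183340 of chromosome 1 on the minus strand, and ENSMUST00000195117 begins upstream at 191218039, both ending at 191170296. The upstream-start transcript had 42, 40, 108 and 198 counts in the control mice, 0, 172, 31 and 0 in the HFD mice, 34, 0, 397 and 0 in the HFD + RSV mice and 0, 251, 0 and 0 in the metformin mice. It was at 0 in 7 mice, none of them a control mouse. The highest Atf3 level of the metformin group, 11.3 CPM in mouse 2, came with 251 counts of this transcript and 50 of the other. The 2 transcripts overlap up to the same end, so the split is an estimate by the counting program.

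**Figure D4:**
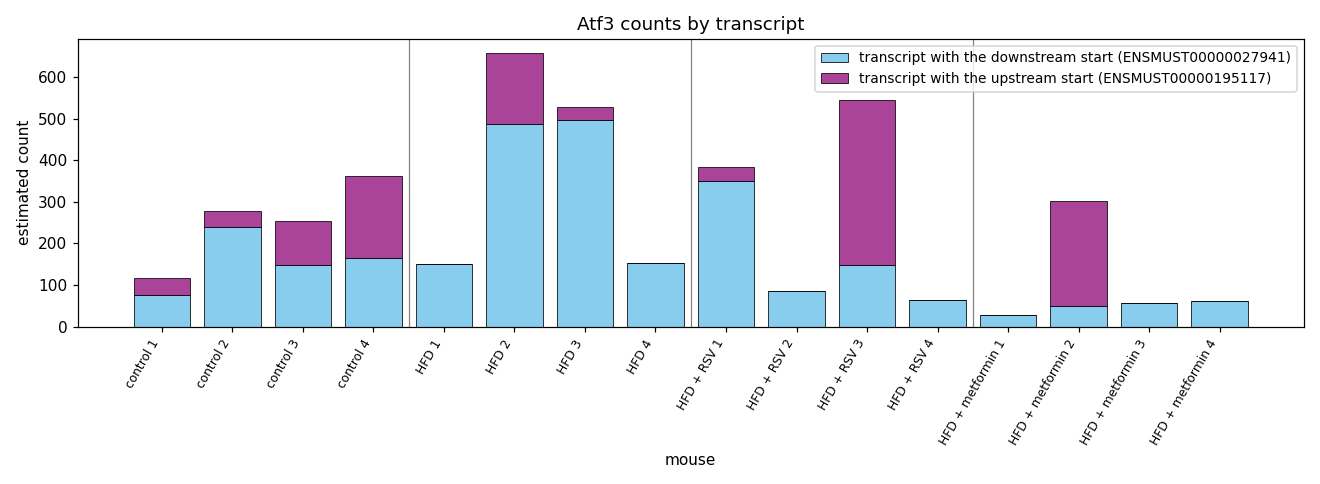
Estimated counts of the 2 main Atf3 transcripts stacked for each mouse (x axis, grey lines between groups). The transcript with the upstream start is present in all 4 control mice, with 40 to 198 counts, and is at 0 in 7 of the other 12 mice.

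By the table and its build GRCm38, Fos lies on chromosome 12 (85473890 to 85477273), Fosb on chromosome 7 (19302696 to 19310051), Jun on chromosome 4 (95049034 to 95052222) and Junb on chromosome 8 (84974484 to 84978718). Ier2 lies on the same chromosome 8 (84661331 to 84662852), Nr4a1 on chromosome 15 (101266846 to 101274792), Btg2 on chromosome 1 (134075170 to 134079120) and Egr1 on chromosome 18. In the GENCODE M21 annotation, 22 of the 23 member transcripts have the same position. The antisense gene Junos overlaps Jun, Prdx2 overlaps the end of Junb on the other strand, and Gm24748 lies opposite Atf3. Whether the counting used strand is not given, so counts of such partners cannot be told apart. The Junb transcript that reaches Prdx2 had 0 to 4 counts, against 163 to 815 for the main Junb transcript.

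The other genes of the pathway showed few passing differences between HFD and control. Of 9 tested genes of the AP-1 family outside the members, Fosl2 and Maff were lower and none was higher, where 1.11% of all genes were called lower and 1.32% higher. Fosl2 had a log2 fold change of -0.98 ± 0.22 (edgeR adjusted P = 0.0418) and Maff, a small Maf protein gene, one of -1.34 ± 0.28 (edgeR adjusted P = 0.0336). Among 29 further early response genes, 2 passed, both lower: Rhob, a small GTPase, at -0.98 ± 0.21, and Btg3, a relative of Btg2, at -1.25 ± 0.29. The median log2 fold change of these 29 was -0.46, with 24 below 0. Of 17 feedback genes, Dusp6, a phosphatase that switches off ERK, at -0.82 ± 0.19, and Nfkbia, the inhibitor of NF-kappa B, at -0.88 ± 0.20, were lower. None of the 4 tested genes listed with Egr1 and Nr4a3, which are family members and EGR-binding cofactors, passed, with a median of -0.66.

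Upstream of the members, 27 genes of MAP kinases, serum response factor partners and CREB coactivators were tested. Mkl1, the actin-sensing partner of serum response factor, was higher by a log2 fold change of 0.98 ± 0.22 and Mapk11, a p38 kinase, by 0.76 ± 0.18, and the median over the 27 was 0.14. The 10 genes of the integrated stress response, to which Atf3 belongs, and 5 heat shock genes had no passing member. Of 12 clock genes Dbp, an output of the circadian clock, was higher, with a log2 fold change of 1.58 ± 0.39 (edgeR adjusted P = 0.0478). Of 9 glucocorticoid-responsive genes Ddit4, an inhibitor of mTOR that reacts to fasting and stress hormones, was lower, with -2.48 ± 0.51 (edgeR adjusted P = 0.0336). Ddit4 was at 34.8, 100.2, 129 and 161 CPM in the control mice and at 28.7, 13.1, 18.0 and 16.3 CPM in the HFD mice. The part of collection time or handling in the member levels was not tested. In the 5 other comparisons no gene of these 9 lists passed.

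Markers of other cell types were compared in the same mice. Of 13 marker lists, passing genes between HFD and control were found in that of brown adipocytes alone, where Cidea and Elovl3 were lower, 2 of 5. The 7 white adipocyte markers did not pass, but their summed level ranged from 1043 to 4716 CPM in the control mice and from 208 to 1034 CPM in the HFD mice. It ranged from 301 to 1209 CPM in the HFD + RSV mice and from 211 to 4381 CPM in the metformin mice. The 7 slow fibre markers ranged from 93.6 to 2313 CPM in control and from 97.9 to 270.2 CPM in HFD mice, with a median log2 fold change of -3.55. None passed the main test, but all 7 were lower by the study's criteria, as were 3 of 7 white and 4 of 5 brown adipocyte markers. The 6 Schwann cell markers, none passing the main test and 4 lower by the study's criteria, ranged from 61.3 to 213 CPM in control and from 43.8 to 64.2 CPM in HFD mice. The 8 endothelial markers ranged from 455 to 548 CPM in control mice and from 416 to 465 CPM in HFD mice. The part of adipose tissue, fibre type or nerve in the member levels of HFD against control was not tested. Between HFD + metformin and HFD no marker passed the main test, while 4 of 5 erythroid and 2 of 5 brown adipocyte markers were higher by the study's criteria. Erythroid sums ranged from 499.6 to 1393 CPM in the metformin mice and from 362 to 477 CPM in the HFD mice, and their part in the Nr4a3 difference was not tested.

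The genes whose pattern was most like that of the members were taken by Pearson's r between their log2 CPM and the mean standardized log2 CPM of the 10 members over the 16 mice, as a description without a test, out of 15354 other genes. They were Gm18955 (r = 0.92), Sik1 (0.87), Nr4a2 (0.87), Sorcs2 (0.83), Maml3 (0.82), Dusp10 (0.81), Maff (0.78), Bcl6b (0.78), Apold1 (0.77) and Gem (0.77). Of these 10, Sik1, Nr4a2, Dusp10 and Maff also stand in the pathway lists. Gm18955 was at 0.18 to 0.76 CPM over the 16 mice, so its r rests on values near the floor. Nr4a2, another receptor of the NR4A family, was at 17.4 and 15.3 CPM in HFD + RSV mice 1 and 2 and at 2.04 and 3.40 CPM in HFD + RSV mice 3 and 4. Sik1, a kinase gene induced by CREB, was at 49.3 to 82.2 CPM in the control mice and at 28.5 to 35.4 CPM in the HFD mice. The points share the mice, their groups and their libraries. Within the members, r with the mean of the 10 members was highest for Fos (0.94) and lowest for Atf3 (0.43) and Nr4a1 (0.45). Each member is itself part of that mean, which raises its r. These values therefore cannot be set beside those of the other genes.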

How the data were processed

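Per the labels and the study's methods, ribosomal RNA was removed, libraries were sequenced on an Illumina NovaSeq, and StringTie counted fragments. The submitters' processing notes name fastp, HISAT2 and the build GRCm38. The authors deposited estimated counts per transcript for mRNAs, which are whole numbers without normalization, and beside them FPKM values computed by the authors. Counts were summed per gene name, 4 transcripts broken over 2 lines were joined, and genes were filtered with filterByExpr (minimum count 10, minimum total 15). The main test was the quasi-likelihood test of edgeR 4.0.16 in R 4.3.3 on all 16 mice with TMM factors, with a Benjamini-Hochberg adjusted P below 0.05 over 15364 genes at any fold change. Replicates are mice. The test was checked on simulated counts. Counting precision is limited by depth, and single values of Fosb rest on few counts.

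FPKM was used only for levels between genes. The prior count of log2 CPM was 2. Alternatives were RLE factors, TMM over the mRNA and lncRNA tables, no filter, DESeq2 1.42.0, other call rules, fits of 12 or 8 mice and leaving out each mouse. All members were named. From each pathway list at most 3 genes per direction with the smallest adjusted P below 0.05 in HFD against control were named, and the 10 genes most like the members by r. Oasl2 was named after its values were seen, and the motif letters TGACG were added after the windows were read. The members and lists were chosen with earlier results of these data known. The lncRNA table entered only the scaling alternative.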

Additional observations from a re-analysis of the deposited data

Results flagged for a closer look

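In each of the 40 combinations of a member and a group of 4 mice, the gap between the extreme mouse and its neighbour was divided by the range on the log2 CPM scale. Dixon's 95% critical value for 4 samples was passed in 4 of them, where chance gives about 1 in 20, or 2. Fos in HFD + RSV mouse 1 had a ratio of 0.9747, with 6.19 log2 CPM against 4.44 to 4.49 in the other mice of its group. Egr1 in control mouse 1 had a ratio of 0.830, with 5.63 log2 CPM against 3.52 to 3.88. Fosb in HFD + metformin mouse 2 had a ratio of 0.988, with -1.24 log2 CPM against 0.48 to 0.50, a value that rests on 9 counts. Nr4a3 in HFD + metformin mouse 4 had a ratio of 0.875, with 1.36 log2 CPM against 1.54 to 1.57, within the narrowest group range of that gene. What set these mice apart was not tested.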

How the results depend on the processing

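RLE factors, TMM over both tables, no filter on low counts and the added fold criterion on adjusted P left the number of members called as in the main test in the comparisons they were run for. By the study's criteria the number was 4 in HFD against control, 4 in HFD + RSV against HFD, 2 in HFD + metformin against HFD, 5 in HFD + metformin against control and 3 in HFD + RSV against HFD + metformin. DESeq2 called 4, 1, 1, 4 and 0 in the same order, beside 10.1%, 0.0521%, 0.202%, 1.01% and 0.0651% of all genes. Among the 4 groups DESeq2 called 4. The fit of 12 mice gave 4 and the fit of 8 mice 3 in HFD against control, and the fit of 8 mice gave 0 in HFD + metformin against HFD. Over all genes in HFD against control, edgeR called 374, the fit of 12 mice 1616 and DESeq2 1544. The cause was not tested. No share of all genes was computed for the fits of 8 mice, the fits with a mouse left out or DESeq2 among the 4 groups. The numbers of members called under those settings therefore cannot be set beside such a share. With each mouse left out in turn, the number was 0 to 5 in HFD against control (5 without HFD + metformin mouse 3, 2 without control mouse 1, HFD mouse 4, HFD + metformin mouse 4 or HFD + RSV mouse 1 or 3, and 0 without control mouse 2, 3 or 4, HFD mouse 1, 2 or 3 or HFD + RSV mouse 4), 0 to 1 in HFD + metformin against HFD, 0 to 1 in HFD + metformin against control (1 without HFD + metformin mouse 3) and 0 to 2 among the 4 groups (0 without control mouse 2 or 3 or HFD mouse 1, 2 or 3, and 2 without HFD + metformin mouse 3 or HFD + RSV mouse 1), and it stayed at 0 in the other 3 comparisons.

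Leaving out a mouse turned the sign of 12 log2 fold changes, none of them called. In HFD + RSV against HFD the range was -0.61 to 0.70 for Fosb, -0.00953 to 0.25 for Jun and -0.00908 to 0.38 for Nr4a1. In HFD + metformin against HFD it was -0.18 to 0.0724 for Jun, -0.0744 to 0.65 for Egr1 and -0.35 to 0.0389 for Btg2. In HFD + RSV against control it was -0.52 to 0.30 for Fos, -1.21 to 0.26 for Fosb, -0.65 to 0.82 for Egr1, -0.48 to 0.49 for Atf3 and -0.28 to 0.0492 for Ier2, and in HFD + metformin against control -0.21 to 0.0267 for Nr4a1. No paired analysis was possible because the labels do not say that their numbers link animals, and only control mouse 2 and HFD + RSV mouse 2 carry the same full number.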
